A study of Mus musculus with 9 samples.

Results

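Open chromatin at the 3 genes of the p53 family, Trp53, Trp63 and Trp73, was described in 3 mouse osteosarcoma cell lines assayed by ATAC-seq, which maps accessible DNA through Tn5 insertion. The members were chosen by name, and every peak overlapping a gene's span plus or minus 50 kb (GRCm38) was taken from each of the 9 deposited peak lists. These windows held 49 of the 124230 regions obtained by merging all lists, and the genes are 3 of the 21887 protein-coding genes in the RefSeq table used. The R172H line carried p53R172H on one allele and no p53 on the other, the R245W line likewise carried p53R245W over a null allele, and the null line had lost p53 on both alleles, so no line had a wild-type copy. Each genotype was 1 line with 3 libraries (replicates 1 to 3). A difference between genotypes therefore cannot be told apart from a difference between tumour lines, and no label states separate cultures, so p-values reflect variation among libraries that may be technical.

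The p53 family are transcription factors that bind the same DNA element as tetramers. p53 arrests or kills cells after DNA damage and oncogene stress, and its loss or mutation is common in osteosarcoma. p63 is best known for building stratified epithelia and limbs, and p73 for multiciliated cells, neurons and the choroid plexus. Trp63 and Trp73 each have an upstream promoter for the TA isoforms, which carry the transactivation domain, and an internal promoter for the ΔN isoforms, which lack it and can act against p53.

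The lists held 72840 to 74352 peaks in the R172H line, 75314 to 79424 in the R245W line and 65199 to 65942 in the null line, and read depth is unknown. The strength of a peak is given as its percentile of -log10 q among all peaks of its own library, from 0 for the weakest to 100 for the strongest. A value of 0 stands for no peak where a gene end is scored. Of the osteoblast markers, 7 of 10 (among them Runx2, Sp7, Alpl, Col1a1, Col1a2 and Spp1) had a peak within 1000 bp of either end (an open gene end) in every library, and Bglap, Ibsp and Dmp1 had none in any; over all protein-coding genes the shares were 55% and 31.3%. Of the epithelial markers 2 of 7 (Krt8 and Esrp1) were open in all 9, of the leukocyte markers 2 of 6 (Cd68 and Spi1) and of the endothelial markers 2 of 5 (Kdr and Erg). Cdh1, Ptprc, Pecam1 and Cdh5 had no gene-end peak in any library. In bulk libraries, fewer cells with an open site and a less open site per cell cannot be told apart.

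Promoter sequences are shown for Trp53, whose start was open in every library, and for both RefSeq starts of Trp73, of which one was weakly open and the other had no peak. They are from RefSeq (GRCm38.p6), 250 bases before to 50 after the start site, on the gene's strand, 5′ to 3′. The table matched 2 of the 3 members. Capitals mark matches, on either strand, to the GC box GGGCGG, the CCAAT box CCAAT, the TATA box TATAAA, the E-box CACGTG, the AP-1 site TGANTCA and the p53 half-site; no matches overlap one another.
Trp53, chr11:69580109-69580408, plus strand: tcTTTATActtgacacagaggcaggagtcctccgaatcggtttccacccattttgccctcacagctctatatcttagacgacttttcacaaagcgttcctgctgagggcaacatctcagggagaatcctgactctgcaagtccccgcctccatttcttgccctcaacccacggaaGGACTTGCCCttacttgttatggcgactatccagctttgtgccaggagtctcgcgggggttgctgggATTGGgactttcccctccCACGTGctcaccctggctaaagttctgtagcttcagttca
Trp73 upstream start, chr4:154139826-154140125, minus strand: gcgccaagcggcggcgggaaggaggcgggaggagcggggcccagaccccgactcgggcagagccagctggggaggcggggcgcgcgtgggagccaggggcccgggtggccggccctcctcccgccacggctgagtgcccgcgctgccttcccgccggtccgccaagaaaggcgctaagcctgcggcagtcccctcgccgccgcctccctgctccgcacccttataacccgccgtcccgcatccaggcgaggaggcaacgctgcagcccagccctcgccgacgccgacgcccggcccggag
Trp73 internal start, chr4:154097124-154097423, minus strand: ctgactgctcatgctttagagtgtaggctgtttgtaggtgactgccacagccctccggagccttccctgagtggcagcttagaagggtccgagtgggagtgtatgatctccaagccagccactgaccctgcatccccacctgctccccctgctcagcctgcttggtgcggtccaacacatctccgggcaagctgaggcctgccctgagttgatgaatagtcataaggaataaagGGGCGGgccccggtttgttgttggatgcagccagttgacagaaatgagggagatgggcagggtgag

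The Trp53 promoter held an E-box, CACGTG, 10 to 15 bases after the start site, as do 7.15% of all 32851 promoters in the table. It also held a reverse CCAAT box at -8 to -4 (CCAAT: 37.4% of promoters), a reverse TATA box at -248 to -243 (13.6%) and the p53 half-site GGACTTGCCC at -75 to -66 (8.36%). The upstream Trp73 promoter had none of the 6 motifs, although 77.7% of its bases were G or C, more than in 97.9% of promoters. The internal Trp73 promoter, at 57.7% G and C, held a GC box at -16 to -11 (35.7% of promoters). These are matches of letters and were not tested as binding sites.

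**Figure D1:**
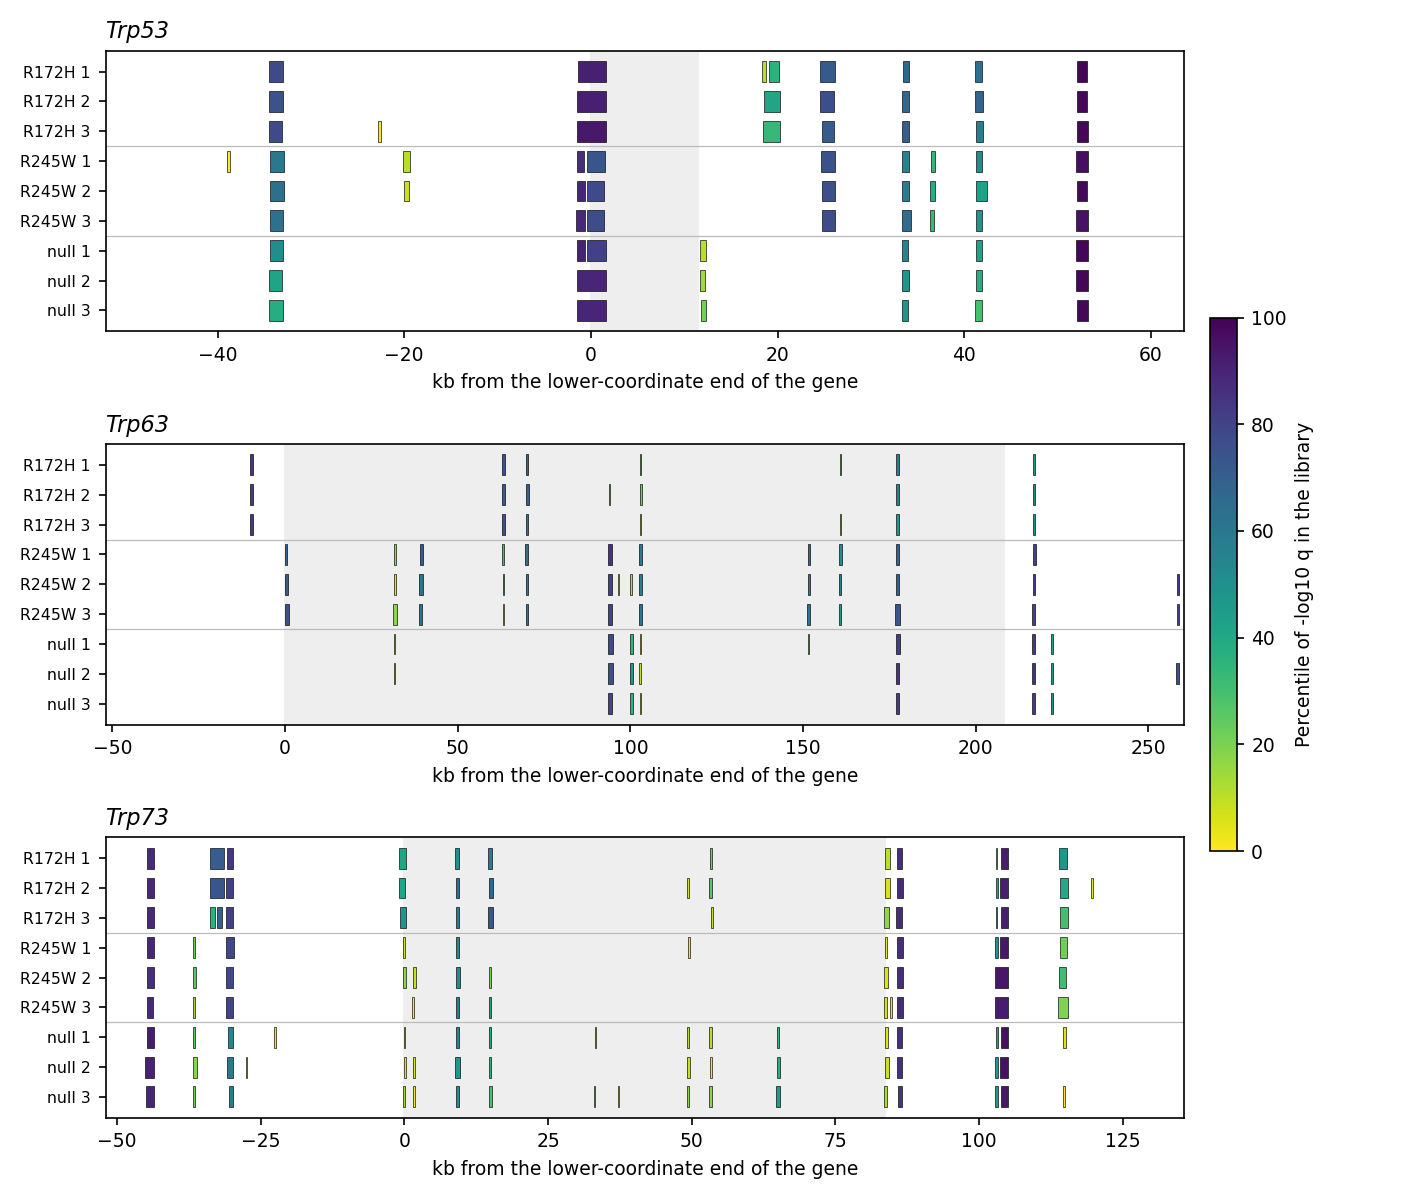
Peaks of the 9 libraries around Trp53, Trp63 and Trp73, as distance in kb from the gene's lower-coordinate end. The grey band is the gene span, each bar is a peak drawn to scale, and its colour is the percentile of -log10 q within the library. At Trp63 the R245W rows hold 11, 14 and 12 peaks, more than any R172H row (7) or null row (6 to 8).

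Trp53 (chromosome 11, 69580348 to 69591873) was open over its start in all 3 lines, and all other peaks of its window lay outside the gene. The strongest summit of this opening lay before the start, on the Wrap53 side, in every library. The peak region, 69578799 to 69581968, covers the Trp53 start and an end of Wrap53, the neighbouring antisense gene whose product takes part in telomerase assembly. Its strongest peak ranked at the 91.4, 91.1 and 93.7 percentile in the R172H libraries, at 87.0, 89.2 and 88.3 in the R245W libraries and at 91.0, 89.5 and 89.5 in the null libraries. Every R172H value lay above every null value, and every null value above every R245W value. R172H averaged 92.0 ± 1.42, R245W 88.2 ± 1.13 and null 90.0 ± 0.859 (SD, n = 3), a spread of 3.88 points. Over all genes with an open end, the exact permutation test of 280 partitions of the libraries into lines gave one-sided p = 0.00357, the smallest possible (Benjamini-Hochberg adjusted p = 0.0125), but 72.6% of 15035 genes passed this test. Without R172H replicate 3 the adjusted p of the exact test was 0.0524 and the spread 3.07 points. With a gene-end window of 500 bp the spread was 16.1 points, with means of 92.0 in R172H, 75.9 in R245W and 86.7 in null. Where a library listed the opening as split peaks, this narrower window left out the stronger one, on the Wrap53 side. Unlike peaks were therefore compared at 500 bp, and the wider spread is not a measure of the start alone.

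The opening at the Trp53 start was listed as 1 peak or as 2. In all 3 R172H libraries and in null replicates 2 and 3 it was 1 peak of 3038 to 3130 bp, reaching 1593 to 1609 bp past the start site. In all 3 R245W libraries and in null replicate 1 it was 2 peaks with a gap before the start site. All 9 libraries had a summit at -1129 to -1050 bp from the Trp53 start, on the Wrap53 side. In the split libraries the peak over the start itself ranked lower, at 73.3, 77.6 and 76.8 in R245W replicates 1 to 3 and at 81.2 in null replicate 1. Its summit lay 1099 to 1111 bp after the start site in 3 of these 4 libraries and at -26 bp in R245W replicate 1. For a peak listed as a single stretch the percentile belongs to the Wrap53-side summit, so the strength at the Trp53 start alone is known only for the split libraries. The authors' fold over background at the strongest summit was 6.97 to 7.88 in R172H libraries, 6.45 to 6.90 in R245W libraries and 6.90 to 7.44 in null libraries.

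The lines parted downstream of Trp53, around Atp1b2 and Shbg. A region across an end of Atp1b2, which encodes a subunit of the sodium-potassium pump (69604934 to 69606477), was called in all mutant libraries and in no null library. It ranked at 72.0, 76.0 and 71.2 in the R172H libraries and at 75.2, 75.3 and 77.0 in the R245W libraries. Over all regions, 3.04% were called in all 6 mutant libraries and in no null library. A region across the other end of Atp1b2 (69598698 to 69600599) was called only in the 3 R172H libraries, at 35.5, 41.2 and 32.9 (9.83% of all regions were called in this line alone). A region 816 bp from an end of Shbg, which encodes the sex hormone binding globulin (69616674 to 69617210), was called only in the 3 R245W libraries, at 33.9, 38.6 and 32.8 (5.79% for R245W alone). A weak region 138 bp beyond the upper end of Trp53 (69592011 to 69592707) was called only in the null libraries, at 10.8, 14.1 and 21.4 (2.74% for null alone). The labels do not say which part of Trp53 the null allele lacks. A region across an end of Fxr2, an RNA-binding protein gene, was open in all 9 libraries (95.4 to 98.8). Other regions called in all 9, near Dnah2 and across an end of Sat2, ranked highest in R172H, at 74.8 to 77.4 and 57.2 to 68.1, against 59.8 to 63.5 and 42.7 to 50.9 in R245W and 37.8 to 51.4 and 29.3 to 42.3 in null.

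Peaks in the Trp53 window numbered 8, 7 and 8 in the R172H libraries, 10, 9 and 8 in the R245W libraries and 7, 6 and 6 in the null libraries. The R245W numbers and that of null replicate 1 include the split start peak. R245W stood above null without overlap, while R172H and null overlapped. Over all genes, every R245W library exceeded every null library at 32.8%, and every R172H library did so at 28.2%. The test over lines did not pass (exact permutation p = 0.0214, adjusted p = 0.0718; 9.63% of 19290 genes passed). The length under peaks, which does not count such a split as a further peak, was 10.2, 10.4 and 10.4 kb in R172H, 9.76, 9.56 and 8.60 kb in R245W and 7.48, 7.59 and 7.70 kb in null. The lines did not overlap: R172H exceeded null by 2.73 kb and R245W exceeded null by 1.72 kb (exact two-sided p = 0.1 for each pair, the smallest that 3 against 3 libraries allow). Every R172H library exceeded every null library in covered length at 38.7% of genes, every R245W library every null library at 58.4%, and every R172H library every R245W library at 19.2%. The test over lines passed (exact p = 0.00357, adjusted p = 0.0113), as it did for 75.8% of genes. With windows of 10 kb the difference of R245W minus null turned round to -0.937 kb. Averaged over libraries, the strongest gene-end peak of Trp53 ranked at 90.1, close to the median of 89.6 over genes open in all 9 libraries.

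**Figure D2:**
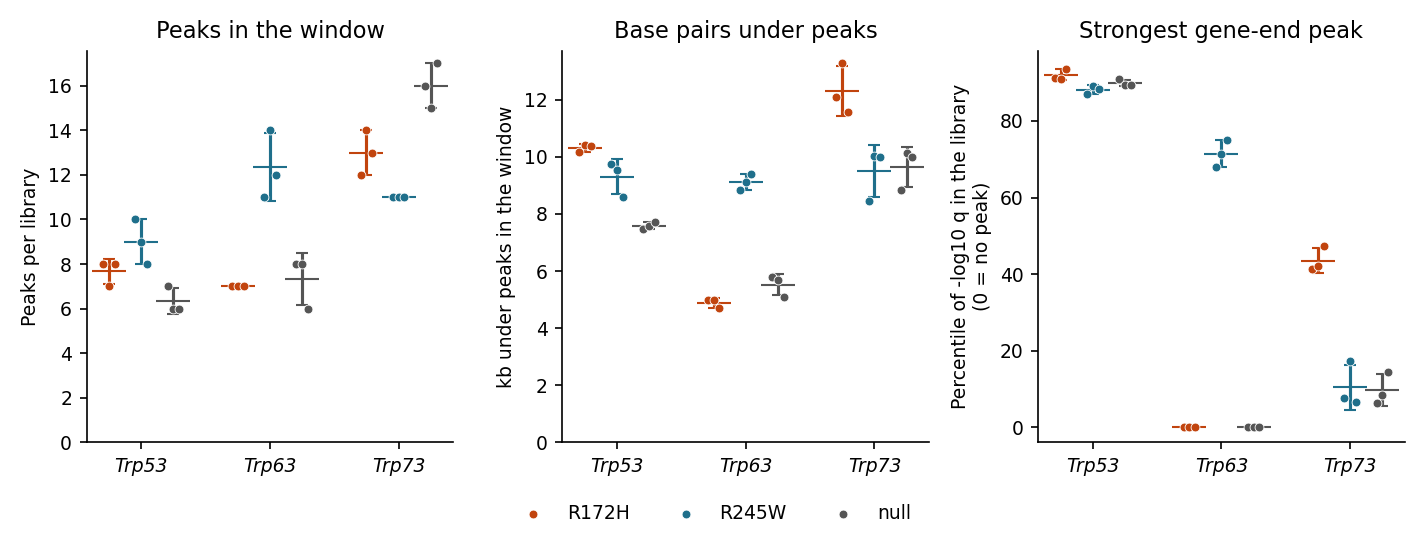
Peaks per window (left), kb under peaks in the window (middle) and percentile of the strongest peak within 1000 bp of a gene end (right, 0 for no peak) for the 3 genes. Points are libraries, and bars are the line mean ± SD (n = 3), with R172H, R245W and null from left to right. Trp63 has an open gene end in R245W alone (68.1 to 75.1), and Trp73 has the most peaks in null (15 to 17).

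Trp63 (chromosome 16, 25683763 to 25892088) was open at a gene end in the R245W line alone. The peak lay across the lower-coordinate end (25683707 to 25684828), from which, as background, the TA transcripts run. It ranked at 68.1, 71.4 and 75.1 in the R245W libraries, with an authors' fold of 11.0 to 11.9, and no R172H or null library had a peak within 1000 bp of either end. Of 21887 genes, 1.25% had an end called in all R245W libraries and in no other. The exact permutation test over lines gave p = 0.0357 and adjusted p = 0.0492, which rose above the threshold of 0.05 with any 1 library left out (exact test, 0.0534 to 0.0554) and with lists of equal length (0.0513). With 2 lines at 0, this exact test cannot give a p below 0.0357 for such a pattern. By comparison 31.3% of genes had no open end in any library, and 72.6% of genes with an open end passed the test over lines.

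Inside Trp63, 11 regions were found, and the lines used different ones. The R245W line had 9 of the 11 in all 3 libraries, while R172H and null had 4 each. No share over all regions was taken for these counts. The R245W lists were the longest. By peaks per window, every R245W library exceeded every R172H library at 27.2% of all genes and every null library at 32.8%, so the counts cannot be called particular to Trp63. Only 2 regions inside the gene were called in all 9 libraries. A region 38.7 kb inside the lower end (25722416 to 25723657) was called in R245W alone, at 71.8, 62.0 and 62.4. A region further in (25835065 to 25835719) ranked at 64.6, 59.0 and 61.3 in R245W, was absent from R172H and had 1 null call at 19.4. The region next to it (25844242 to 25844962) ranked at 51.4, 55.5 and 46.0 in R245W, had calls of 19.7 and 13.8 in R172H replicates 1 and 3, and was absent from null. The weak region at 25715159 to 25716043 was called in all R245W libraries (5.25 to 17.3) and in 2 null libraries.

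A pair of neighbouring regions was shared by the mutant lines and missing from null. The first (25746552 to 25747490) was stronger in R172H, at 75.5, 71.2 and 76.4, than in R245W, at 30.5, 26.2 and 8.87. The other (25753393 to 25754308) ranked near in both, at 67.7, 70.4 and 62.99 in R172H and at 64.1, 59.6 and 60.7 in R245W, and the R172H and R245W ranges overlapped. The R172H line also had a region of its own 9.15 kb below the gene (25673573 to 25674618), at 85.8, 83.2 and 83.9. It had the highest percentiles of the regions called in 1 line alone in the 3 windows, with an authors' fold of 15.6 to 17.9.

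Other Trp63 regions were shared by R245W and null and weak or absent in R172H. The region at 25777284 to 25778649 ranked at 85.3, 82.0 and 80.1 in R245W and at 78.2, 75.9 and 79.8 in null, while R172H had 1 call, in replicate 2, at 17.0. The null line had regions of its own at 25905478 to 25906087 (43.3, 45.7 and 51.3) and, apart from 1 weak R245W call at 11.0, at 25783573 to 25784562 (35.0, 46.6 and 34.9). Regions called in all 9 libraries also differed in rank. The region at 25860562 to 25861770 ranked at 57.9, 56.5 and 47.7 in R172H, at 68.8, 69.8 and 73.7 in R245W and at 82.2, 85.7 and 82.5 in null, with no overlap between lines. The region at 25786382 to 25787120 was strongest in R245W (56.4 to 61.2), against 9.58 to 22.5 in R172H and 2.48 to 9.35 in null. The region 8.01 kb above the gene ranked at 46.4, 52.5 and 50.7 in R172H, below 81.0 to 82.8 in R245W and 82.5 to 85.0 in null.

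**Figure D3:**
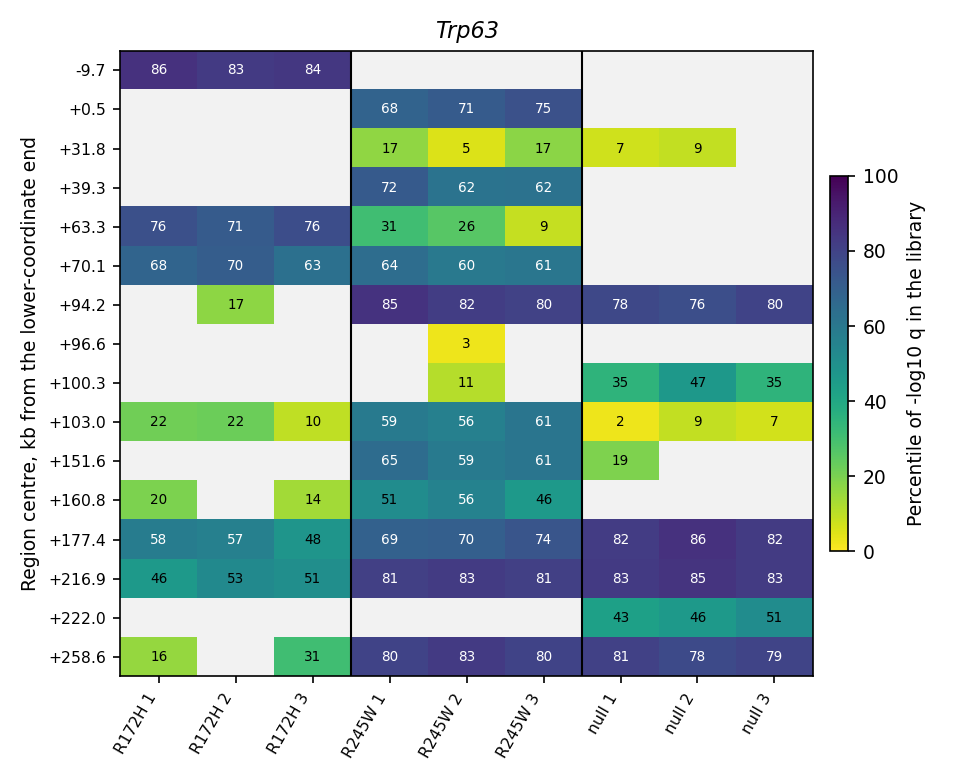
Percentile of the strongest peak in each of the 16 regions of the Trp63 window (rows, by kb from the lower-coordinate end) in the 9 libraries (columns, R172H, R245W and null). Grey means no peak. The region at +0.5 kb has values in R245W alone (68 to 75), the one at -9.7 kb in R172H alone (83 to 86) and the one at +222.0 kb in null alone (43 to 51).

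The Trp63 window held 7, 7 and 7 peaks in the R172H libraries, 11, 14 and 12 in the R245W libraries and 8, 8 and 6 in the null libraries. R245W stood above both other lines without overlap, by 5.33 peaks over R172H and 5 over null. Over all genes, every R245W library exceeded every R172H library in 27.2% and every null library in 32.8%. The R245W lists were also the longest. The test over lines gave exact p = 0.0357 and adjusted p = 0.0718, and without null replicate 3 an adjusted p of 0.0408 in the same exact test. In kb under peaks R172H had 5.01, 4.98 and 4.69, R245W 8.84, 9.12 and 9.40 and null 5.79, 5.70 and 5.10, and the test passed (exact p = 0.00357, adjusted p = 0.0113; 75.8% of genes). Every R245W library exceeded every R172H library in covered length at 48.2% of genes and every null library at 58.4%. The window edge cuts a region at its upper side. The peak there began 49.8 to 49.9 kb above the gene in R245W replicates 2 and 3 and null replicate 2 and was counted. In R245W replicate 1 and null replicates 1 and 3 (79.4 to 80.6) and, at 50.2 kb, in R172H replicates 1 and 3 (15.6 and 30.7), it began just outside. With the region counted by its merged interval it was called in 8 of 9 libraries.

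Trp73 (chromosome 4, 154056249 to 154139875) was weakly open at its upstream promoter in all 3 lines. The peak over this promoter (154139714 to 154140719) ranked at 10.8, 5.57 and 17.2 in the R172H libraries, at 3.23, 5.89 and 6.49 in the R245W libraries and at 4.71, 8.44 and 12.7 in the null libraries. The lines overlapped, and the authors' fold was 2.06 to 2.69 in all 9 libraries. A stronger region 1.99 kb away, at the start of Wrap73, ranked at 86.8 to 87.5 in R172H, 87.3 to 87.8 in R245W and 84.6 to 86.2 in null. No library had a peak over the internal promoter shown above. The nearest peaks lay 3.49 kb below it, in null replicate 3, and 7.99 kb above it. Of all promoter sequences 38.5% were overlapped by a peak in all 9 libraries and 50% in none. Averaged over libraries, the strongest gene-end peak of Trp73 ranked at 21.2, against a median of 89.6 over the 12039 genes with an open end in all 9 libraries, and above 0.482% of them.

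At the opposite end, where transcripts finish, Trp73 was more open in the R172H line. The region across that end (154055339 to 154056545) ranked at 41.3, 42.0 and 47.3 in R172H, at 7.53 and 17.2 in R245W replicates 1 and 2 with no call in replicate 3, and at 6.30, 3.94 and 14.4 in null. R172H did not overlap the others. Taken over both ends, the strongest gene-end peak averaged 43.5 ± 3.27 in R172H, 10.4 ± 5.89 in R245W and 9.71 ± 4.19 in null (SD, n = 3). The exact permutation test over lines gave p = 0.0286 and adjusted p = 0.0465, and 72.6% of genes with an open end passed it. The exact test's adjusted p rose to between 0.0505 and 0.0536 without R172H replicate 1, 2 or 3 or null replicate 1, 2 or 3. Inside the gene, a region 14.6 kb from the lower end ranked at 57.8, 67.5 and 74.1 in R172H, above 20.3 and 41.0 in R245W replicates 2 and 3 and 39.2, 35.7 and 29.2 in null. A region 8.88 kb from that end was called in all lines, which overlapped, with 47.3 to 62.6 over all 9 libraries.

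The null line had the most regions inside Trp73. Of the 8 regions inside the gene it had 5 in all 3 libraries, against 3 in R172H and 1 in R245W. No share over all regions was taken for these counts. Weak calls are among them. With -log10 q of 5 or more, peaks over the whole window averaged 12 in null, 11.7 in R172H and 8.33 in R245W. A weak one of the null regions (154105408 to 154105921) ranked at 8.63 to 17.3 in null, with 1 call each in R172H (6.94) and R245W (2.52). One of the null regions (154120990 to 154121644) was called in null alone, at 32.9, 37.3 and 45.5. Another (154109223 to 154109966) was called in R172H (9.58 to 26.0) and null (1.91 to 17.5) and in no R245W library, as were 0.858% of all regions. Outside the gene the R172H line alone had a region at 154022368 to 154024802, 856 bp from an end of Lrrc47. It ranked at 71.0, 73.2 and 69.0, while the authors' fold of its peaks was only 2.42 to 4.17. Of all regions, 9.83% were called in the R172H line alone. A weak region 298 bp from an end of Smim1, a red cell membrane protein gene (154019467 to 154020172), was absent from R172H and ranked at 22.1, 25.5 and 15.2 in R245W and at 24.7, 17.9 and 22.1 in null; 6.21% of all regions had this pattern. The neighbouring region at Smim1 and Ccdc27 (154025157 to 154026554) was called in all libraries. By percentile it was lower in null, at 54.1, 58.5 and 58.0, against 81.3 to 83.8 in R172H and 78.7 to 79.7 in R245W. The authors' fold gave another order, with R172H lowest at 5.23 to 6.04, null at 6.41 to 6.98 and R245W at 8.68 to 8.91.

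**Figure D4:**
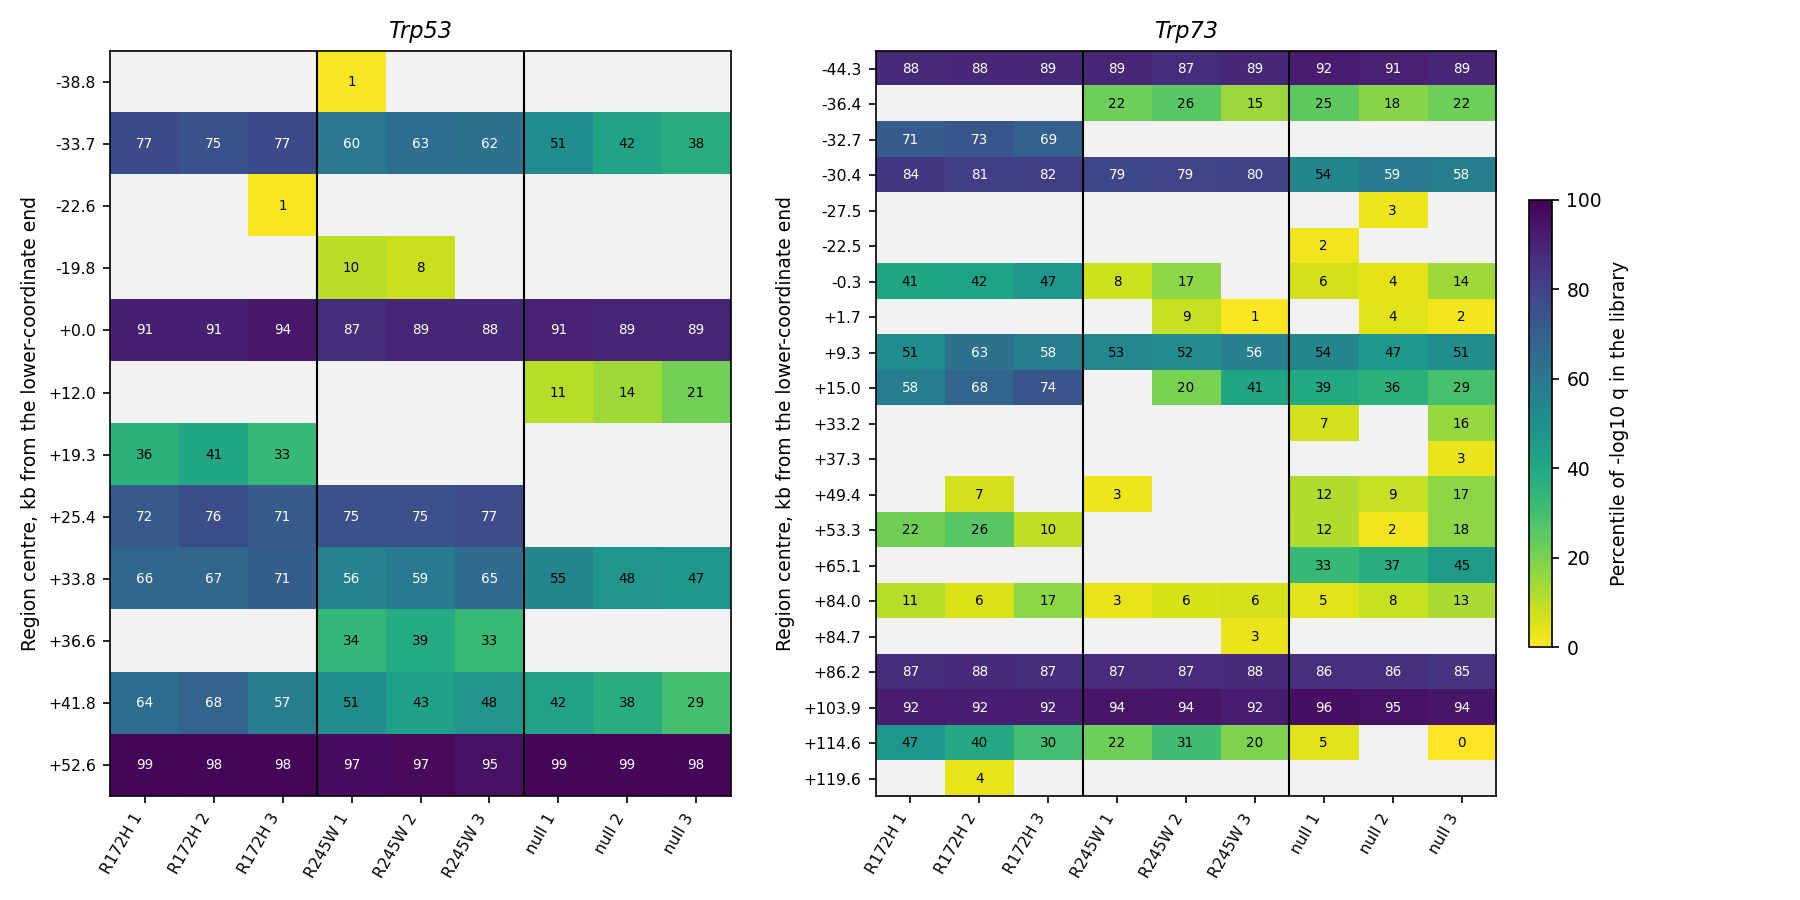
Percentile of the strongest peak in each of the 12 regions of the Trp53 window (left) and the 21 of the Trp73 window (right) in the 9 libraries (R172H, R245W and null), by kb from the lower-coordinate end. Grey means no peak. The Trp53 row at +25.4 kb is filled in both mutants (71 to 77) and empty in null, and the Trp73 row at +84.0 kb, the upstream promoter, is weak in every library (3 to 17).

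Peaks in the Trp73 window numbered 12, 14 and 13 in the R172H libraries, 11, 11 and 11 in the R245W libraries and 16, 15 and 17 in the null libraries. The null lists were the shortest. No pair of lines overlapped (R172H minus null -3, R245W minus null -5, exact two-sided p = 0.1 each). Every null library exceeded every R172H library at 16.2% of genes and every R245W library at 7.37%, and every R172H library exceeded every R245W library at 15.7%. The test over lines gave exact p = 0.00357 and adjusted p = 0.0371, and the adjusted p exceeded 0.05 with -log10 q of 5 or more (exact test, 0.0683), with windows of 10 kb (0.097) and 100 kb (0.873), and without R172H replicate 1, R245W replicate 1, 2 or 3, or null replicate 3 (0.0591 to 0.0642). The kb under peaks ran otherwise, with 12.1, 13.3 and 11.6 in R172H, 8.46, 10.0 and 10.0 in R245W and 8.85, 10.1 and 9.99 in null (exact p = 0.025, adjusted p = 0.039). R172H stood above both other lines and R245W and null overlapped. In covered length every R172H library exceeded every null library at 38.7% of genes and every R245W library at 19.2%. This test over lines passed for 75.8% of genes. Without R172H replicate 2, null replicate 2 or null replicate 3 the exact test's adjusted p for kb was 0.0538, 0.0559 and 0.065.

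Regions called in all 3 libraries of a line and none of another were counted over the 3 windows and set beside their share of all regions. R172H against null had 6 of 49 regions in R172H alone, or 12.2%, against 14.5% of all regions, and 5 in null alone, or 10.2%, against 10.3%. R245W against null had 7 in R245W alone, or 14.3%, against 10%, and 4 in null alone, or 8.16%, against 4.03%. With lists of equal length the last number was 8 regions, against 6.83% of all regions. R172H against R245W had 4 in R172H alone, or 8.16%, against 11.5%, and 6 in R245W alone, or 12.2%, against 13.8%. By window, Trp63 had 5 of 16 regions in R245W and not in null, Trp53 had 2 of 12 and Trp73 had 0 of 21. Regions called in all 9 libraries made up 41.7% at Trp53, 18.8% at Trp63 and 28.6% at Trp73, against 29.4% in the genome. No test was made of these shares.

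The genes closest to each member in peaks per window over the 9 libraries had nearly the same numbers. For Trp53 they included Aasdh, P2rx6, Spcs1 and Gnl3, with sums of squared differences of 2 to 3. For Trp63 they included Sec63, Senp7, Tstd2 and Ncbp1 (4 to 9), and for Trp73 Fgf1, Wdr33, Thrb and Enpp2 (3 to 10). Window lengths were not matched, and likeness in numbers of peaks does not place peaks at like positions.

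Regulators of the family were open in every line with few exceptions. Of 30 regulators, 26 were open at a gene end in each of the 9 libraries, against 55% of all protein-coding genes. They included Mdm2, the ubiquitin ligase that degrades p53 (82.7 to 90.8), Trp53bp2, which steers p53 to apoptotic genes (92.3 to 98.9), Chek2, a kinase that activates p53 (99.3 to 99.86), and Hipk2, another activating kinase (88.9 to 98.4). Cdkn2a, whose Arf product inhibits Mdm2, was called in all 6 mutant libraries and in no null library (86.1 to 95.0); 1.48% of genes showed this pattern. Mdm4, Usp7 and Nedd4l had no gene-end peak. Scored by a peak over any RefSeq promoter, 24 of the 26 regulators in the promoter table were open in all 9 libraries. Over all genes the share was 40.4%. Cdkn2a and Usp7 were the exceptions, Usp7 with a promoter peak in 8 libraries, 2 of them R245W. Mdm4 had a promoter peak in all 9.

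Of 20 epithelial targets of p63, 8 were open at a gene end in all 9 libraries (55% of all genes) and 4 (Krt5, Col17a1, Zfp750 and Dsg3) in none (31.3% of all genes), which include the basal keratin and a hemidesmosome collagen. In R245W and in no R172H or null library Dsp, a desmosome gene, was called at 53.9 to 56.1. Grhl2, an epithelial transcription factor, was called in R245W and not in null, with its highest value at 21.8 and 2 calls in R172H. Krt14, the partner keratin of Krt5, was called in all R172H libraries, in 1 R245W library and in no null library (34.2 to 80.5), and Krt15 in R172H alone (3.33 to 21.9; 1.2% of genes). The epithelial marker Krt19 was also called in all mutant libraries and in no null library, and Epcam in all R245W, 2 null and no R172H libraries; their part in these values was not tested. By promoter peaks, 5 of the 10 targets in the promoter table were open in all 9 libraries, the Krt14 promoter in none and that of Dsp in 1. In counts, 2 of 20 were called in R172H and not in null (3.19% of all genes), 2 in R245W and not in null (3.3%), 1 in R172H and not in R245W (1.61%), 1 in R245W and not in R172H (2.57%), and 0 in null alone against either mutant (1.27% and 0.544%). Of the 16 ciliation targets of p73, 9 had open ends in all 9 libraries, a share near the 55% of all genes, among them Foxj1, the master factor of motile cilia (88.6 to 93.4). Gmnc, Rfx3, Deup1 and Ak7 had none (31.3% of all genes). By promoter peaks 8 of 15 were open in all 9 libraries, Rfx3 included, and 4 (Gmnc, Ccdc78, Deup1 and Ak7) in none, against 40.4% and 48.3% of genes. Dnah9, an axonemal dynein gene, was called in all mutant libraries and in no null library, at 51.7 to 66.6.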

How the data were processed

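ATAC-seq peak lists of 9 libraries (3 lines, 3 libraries each) were used. The build was GRCm38 and peaks carry the MACS2 format; MACS2 2.1.0, Bowtie 1.1.2, Trimmomatic 0.33, bcl2fastq 2.17 and deepTools are named in the submitters' processing notes, with settings and any Tn5 shift not given in the sources used. The deposited lists, 1 per library, give each peak's start and end, a score, the fold ratio over background, and the p-value and q-value as -log10, all the authors' values; the lowest -log10 q corresponds to a q of 0.05. Read depth is unknown, so peaks were compared as called or not and by percentile of -log10 q within a library.

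Peaks overlapping a gene span (RefSeq, GRCm38.p6) plus or minus 50 kb by at least 1 bp were counted for every protein-coding gene, with the kb they cover and the strongest peak within 1000 bp of either gene end. Lines were compared by an exact permutation test of the sum of squares between lines over 280 partitions, one-sided. Benjamini-Hochberg adjustment was made over all genes with a peak, with a threshold of 0.05. The test was checked on simulated numbers of peaks, with changes larger than the members had, in windows with more peaks. Covered kb and gene-end percentiles were not simulated. Regions were merged over all lists at an overlap of 1 bp. The members and lists were chosen with earlier results of these data known. Regions specific in a pair, genes with ends in a window, list genes whose ends were specific in a pair, and the 5 genes most alike in peaks per window were named by rule; the last leaves out genes that have no proper name, and some genes are not reported here, and list examples open in all libraries were chosen after their values were seen. Alternatives were a -log10 q of 5, lists of equal length, autosomes, other windows (10 and 100 kb; 500 and 2000 bp), summits, 250 bp summit windows, calls in 2 of 3 libraries, a replicate block and each library left out. Libraries of a line shared a fraction of 0.805 to 0.838 of regions, and none were duplicates. Python 3.11.15, numpy 2.4.6, pandas 2.3.3 and matplotlib 3.10.9 were used.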

Additional observations from a re-analysis of the deposited data

How the results depend on the processing

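With each library left out, the spread of line means in peaks ran from 2.167 to 3.17 at Trp53, 4.5 to 6 at Trp63 and 4.5 to 5.5 at Trp73. The spread in kb ran from 2.67 to 2.81, 4.09 to 4.37 and 2.34 to 3.19, and that of the gene-end percentile from 3.07 to 4.41, 69.7 to 73.2 and 32.0 to 36.5, in the same order of genes. Of these values and the region counts, 110 stayed on their side of the threshold or within 1.5 times the count, 24 lost the threshold of 0.05 and 1 gained it. Regions in R172H and not null numbered 6 to 7, in null and not R172H 5 to 7, in R245W and not null 7 to 8, in null and not R245W 4 to 5, in R172H and not R245W 4, and in R245W and not R172H 6 to 7.

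With -log10 q of 5 or more, the Trp73 spread in peaks was 3.67 and no longer passed, with means of 11.7 in R172H and 12 in null. With lists of equal length the Trp63 gene-end value was 66.2, which did not pass, 8 regions were called in null and not in R245W, and the spread in peaks was 1.67 at Trp53 and 7.67 at Trp73. With a gene-end window of 500 bp the Trp53 percentile spread was 16.1 and still passed. In libraries with a split start peak, this window left out the peak on the Wrap53 side, so unlike peaks were compared. With windows of 10 kb Trp73 had spreads of 4 peaks and 1.54 kb, neither passing, and 3 regions were in null and not R172H. At Trp53 the R245W minus null differences reversed to -0.33 peaks and -0.937 kb, and the R172H minus R245W difference to 0.33 peaks. With windows of 100 kb the spread in peaks was 5 at Trp53 and 8.67 at Trp63, both now passing, and 1 at Trp73, not passing. The spread in kb was 4.86 at Trp53, 9.29 at Trp63 and 4.77 at Trp73, and 11 regions were in R172H and not null, 12 in R245W and not null and 11 in R245W and not R172H. With calls in 2 of 3 against at most 1 of 3, 10 were in null and not R172H and 7 in null and not R245W. By promoters, an alternative chosen after seeing the data, 5 of the 10 p63 targets in the promoter table were open in all libraries. The 8 open at gene ends were out of 20, so these counts cover unlike sets of genes. The cause of the other changes in this paragraph was not tested.

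Libraries with the same number did not deviate together (correlations -0.0082 to 0.0278 in peaks per window). With the replicate number as a block the values stayed and the smallest possible exact p was 0.0278, and these no longer passed: Trp73 peaks 5 (adjusted p = 0.182); kb 2.73 at Trp53 (0.0594), 4.23 at Trp63 (0.0594) and 2.82 at Trp73 (0.0878); gene-end percentile 3.88 at Trp53 (0.0682), 71.5 at Trp63 (0.14) and 33.8 at Trp73 (0.128). Without read depth, a missing call cannot be told apart from a site just under the peak threshold.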
